A study of Homo sapiens with 6 samples.

Results

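The 44 genes described here encode chaperones, stress sensors and quality-control factors of the endoplasmic reticulum (ER), the compartment in which secreted and membrane proteins fold. They were taken from the count files by gene symbol and make up 44 of the 16907 genes listed, and all 44 were among the 14853 genes tested. The list was chosen by known ER function with the siOGT against siControl fold changes of these same libraries already seen, DERL3 being among the lowest. The fold changes, calls and adjusted p-values of the 44 genes are therefore a description of the list and were not used as support for any statement.

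Cells were LX-2, an immortalised human line of hepatic stellate origin. Stellate cells of the liver can become collagen-secreting myofibroblasts. LX-2 cells were grown in DMEM with 5% serum and transfected with 20 nM of a control siRNA (siControl) or of an siRNA against OGT (siOGT), and poly(A)-enriched RNA was sequenced after 72 h. OGT modifies nuclear and cytoplasmic proteins with single O-linked N-acetylglucosamine residues (O-GlcNAcylation). Each group held 3 libraries, labelled as biological replicates and paired by replicate number, from 1 cell line and with no second siRNA group.

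In the unfolded protein response (UPR), unfolded proteins in the ER activate the sensors IRE1, PERK and ATF6, and the transcription factors they release raise genes for chaperones, disulfide isomerases and degradation factors. In ER-associated degradation (ERAD), misfolded proteins are recognised, pulled back through the membrane, marked with ubiquitin and destroyed by the proteasome. Stellate cells that secrete collagen depend on this machinery, since collagen chains are hydroxylated, folded and assembled in the ER before export.

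Many of these genes carry short response elements near their start sites. The ER stress response element (ERSE) is CCAAT and CCACG with 9 bases between them and is bound by ATF6 together with NF-Y. ERSE-II is ATTGG and CCACG with 1 base between them, and the core of the UPR element (UPRE) is TGACGTG. All were searched on both strands in RefSeq promoter windows (GRCh38.p14, 250 bases before to 50 after each start). A window was given for 40 of the 44 genes, the others being PDIA3, DERL3, SEC24D and DERL1. A match describes letters and is not evidence of binding. The windows below are those of the main luminal chaperones and of XBP1, whose responses are compared in the following paragraphs, and of the 3 genes with ERSE or ERSE-II that were lower in siOGT. Each is written 5′ to 3′ on the strand of its gene, with the matched elements in capitals.
HSPA5: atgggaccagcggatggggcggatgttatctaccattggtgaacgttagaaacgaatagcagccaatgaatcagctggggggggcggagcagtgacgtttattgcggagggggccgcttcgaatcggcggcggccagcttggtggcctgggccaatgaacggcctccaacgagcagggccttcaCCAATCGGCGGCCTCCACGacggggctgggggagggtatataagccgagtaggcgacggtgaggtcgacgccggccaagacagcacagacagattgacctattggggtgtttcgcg
HSP90B1: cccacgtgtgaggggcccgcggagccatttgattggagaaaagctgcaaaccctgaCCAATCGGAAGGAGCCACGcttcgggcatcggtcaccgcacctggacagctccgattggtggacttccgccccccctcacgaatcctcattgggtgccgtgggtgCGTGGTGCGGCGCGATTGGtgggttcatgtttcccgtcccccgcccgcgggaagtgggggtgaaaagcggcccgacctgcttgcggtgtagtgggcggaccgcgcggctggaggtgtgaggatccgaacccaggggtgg
HYOU1: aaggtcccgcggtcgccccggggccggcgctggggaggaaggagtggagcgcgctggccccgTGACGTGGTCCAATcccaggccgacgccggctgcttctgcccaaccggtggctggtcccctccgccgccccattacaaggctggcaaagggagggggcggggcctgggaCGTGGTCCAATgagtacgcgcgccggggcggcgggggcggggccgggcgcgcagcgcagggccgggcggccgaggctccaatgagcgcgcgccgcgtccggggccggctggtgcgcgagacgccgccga
XBP1: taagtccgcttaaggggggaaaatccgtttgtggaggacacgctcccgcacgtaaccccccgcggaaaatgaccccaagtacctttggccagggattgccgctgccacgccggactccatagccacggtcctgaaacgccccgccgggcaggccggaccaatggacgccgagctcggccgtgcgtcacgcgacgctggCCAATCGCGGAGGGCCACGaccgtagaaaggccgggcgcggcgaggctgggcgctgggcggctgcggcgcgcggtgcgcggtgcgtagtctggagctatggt
CALR: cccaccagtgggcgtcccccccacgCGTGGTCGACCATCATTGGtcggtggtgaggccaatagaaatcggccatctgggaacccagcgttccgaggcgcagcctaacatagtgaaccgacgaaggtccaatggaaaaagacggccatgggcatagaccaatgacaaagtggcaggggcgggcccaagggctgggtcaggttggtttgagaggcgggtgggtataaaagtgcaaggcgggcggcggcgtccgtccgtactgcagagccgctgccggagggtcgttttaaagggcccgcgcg
CRELD2: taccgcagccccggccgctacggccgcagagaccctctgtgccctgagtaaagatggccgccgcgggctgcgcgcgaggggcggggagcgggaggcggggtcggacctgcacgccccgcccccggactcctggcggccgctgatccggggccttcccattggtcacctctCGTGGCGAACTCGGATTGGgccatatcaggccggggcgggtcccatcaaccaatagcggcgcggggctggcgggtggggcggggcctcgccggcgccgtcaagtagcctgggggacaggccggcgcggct
SDF2L1: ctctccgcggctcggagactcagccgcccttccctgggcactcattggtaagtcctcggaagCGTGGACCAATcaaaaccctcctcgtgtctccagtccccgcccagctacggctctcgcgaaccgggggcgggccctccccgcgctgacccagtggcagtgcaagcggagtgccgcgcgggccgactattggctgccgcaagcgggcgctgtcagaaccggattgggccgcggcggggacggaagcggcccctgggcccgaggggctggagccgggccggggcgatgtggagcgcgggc
These windows were HSPA5 at chr9:125241294-125241593, minus strand, HSP90B1 at chr12:103930160-103930459, plus strand, HYOU1 at chr11:119057156-119057455, minus strand, XBP1 at chr22:28800520-28800819, minus strand, CALR at chr19:12938359-12938658, plus strand, CRELD2 at chr22:49918384-49918683, plus strand and SDF2L1 at chr22:21642052-21642351, plus strand. HSP90B1 held an ERSE in each orientation. In HYOU1 the first capital run is a UPRE core whose last bases are also the first of an ERSE-II on the opposite strand, and the second run is another ERSE-II.

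An ERSE was found in 8 of the 40 genes (20.0%), namely HSPA5, HSP90B1, CALR, CANX, XBP1, PDIA6, CRELD2 and ERO1B. The same element occurred in 0.157% of the 11456 tested genes that had a window, and in 0.0916% of all 27305 genes with one. ERSE-II was found in HYOU1, HERPUD1 and SDF2L1, which is 7.5% of the 40 genes and compares with 0.122% of the tested genes. UPRE cores were present in DNAJC10, SEC61A1 and HYOU1 (7.5%, against 3.23% of the tested genes). In all, 13 of 40 genes (32.5%) held at least 1 of the elements, against 3.5% of the tested genes. Membership rests on known ER function, so these shares describe the list.

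**Figure D1:**
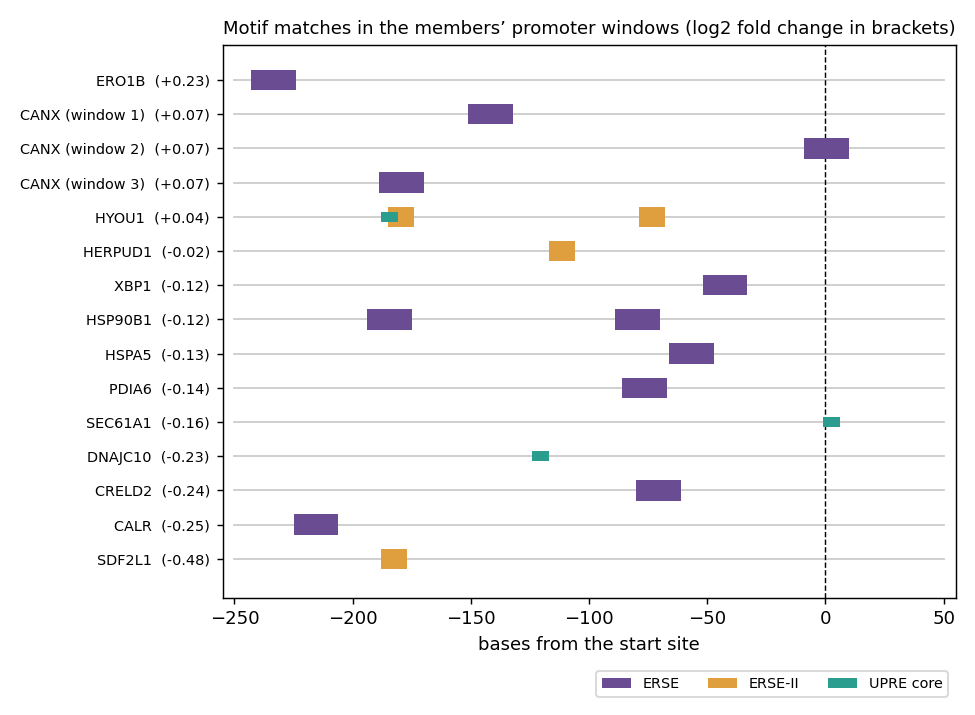
Positions of ERSE, ERSE-II and UPRE core matches in RefSeq promoter windows of the 13 genes that held 1 or more, in bases from the start site (dashed line), with the log2 fold change of each gene in brackets. Matches lay anywhere from near the far end of the window to the start site, and the fold changes beside them ran from -0.48 for SDF2L1 to 0.23 for ERO1B.

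OGT itself, the silenced gene, had 177, 137 and 121 CPM (counts scaled to a common library size) in the siControl libraries 1 to 3 and 39.9, 27.0 and 29.2 CPM in the siOGT libraries. Its log2 fold change was -2.18 ± 0.073 (SE, n = 3 pairs, edgeR adjusted p 2.71e-12). Libraries held 25996770 to 27966801 expected counts. The 44 genes together took 0.678% to 0.742% of them, and their summed level was 6853 to 7424 CPM in siControl and 6667 to 7385 CPM in siOGT. The summed level of 11 stellate cell and myofibroblast markers was 8293 to 9962 CPM in siControl and 7898 to 9808 CPM in siOGT. Of these markers, LRAT, which marks quiescent stellate cells, and DES were at or near 0. Within that sum COL1A1 (log2 fold change -0.39), COL1A2 (-0.32), COL3A1 (-0.64) and PDGFRB (-0.32) were called lower, and SPARC (0.44) and TAGLN (0.37) higher. ACTA2 was low, at 4.83 to 9.69 CPM in siControl and 6.08 to 8.58 CPM in siOGT, and was not called. Hepatocyte markers summed to at most 12.6 CPM and endothelial markers to at most 7.86 CPM. Within these lists CYP2E1 was called higher (log2 fold change 0.74) and VWF lower (-0.93). Cholangiocyte markers summed to 88.6 to 128.2 CPM in siControl and 91.4 to 128.7 CPM in siOGT, nearly all of it SOX9. The leukocyte and Kupffer cell list was higher in siOGT (175.7 to 207.8 CPM against 130.7 to 162.0 CPM), nearly all of it CD68, while PTPRC stayed under 1 CPM and CD163 was near 0. Whether these markers had a part in the differences below was not tested. In RNA from whole cultures, fewer cells expressing a gene and less RNA per cell cannot be told apart.

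Most of the 44 genes differed little between siControl and siOGT. By edgeR's quasi-likelihood test with the replicate number as a block, 16 of the 44 genes (36.4%) passed an adjusted p of 0.05, where 25.4% of all genes tested did, and 29.9% of those with a mean of at least 1 CPM. Of the 16 genes, 5 were higher in siOGT (CALU, DNAJB9, EDEM3, ERN1 and SEL1L; 12.7% of all genes tested passed in that direction). The other 11 were lower (DERL3, SDF2L1, ATF6B, CREB3L1, CALR, OS9, WFS1, CRELD2, DNAJC10, SEC31A and CREB3L2; again 12.7% of all genes). The median log2 fold change of the 44 genes was -0.11, or -0.027 without the pair of replicate 1, against 0.007 over all genes. Their median absolute log2 fold change was 0.176. This compares with 0.186 over all genes and 0.16 over those with a mean of at least 1 CPM, which include all 44. DERL3 was the only called gene of the list that differed by more than 2-fold, and 161 called genes over the whole table did. In the log2 ratios within pairs, 14 genes were higher in all 3 pairs and 20 were lower in all 3. Of all 14853 genes tested, 4069 were higher in all 3 pairs and 3957 lower. The siOGT libraries all lay above the siControl libraries for 5 genes, as for 12.1% of all genes tested, and all below for 8 genes, as for 11.8%.

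These calls rest on the pairing of the libraries. Without the replicate block edgeR called 2 of the 44 genes, CALU and DERL3, and 130 genes in all. With the block but without the pair of replicate 1, it called 6, namely DERL3, CALU, ATF6B, SDF2L1, SEL1L and EDEM3. No called gene changed sign in any of the settings tried.

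**Figure D2:**
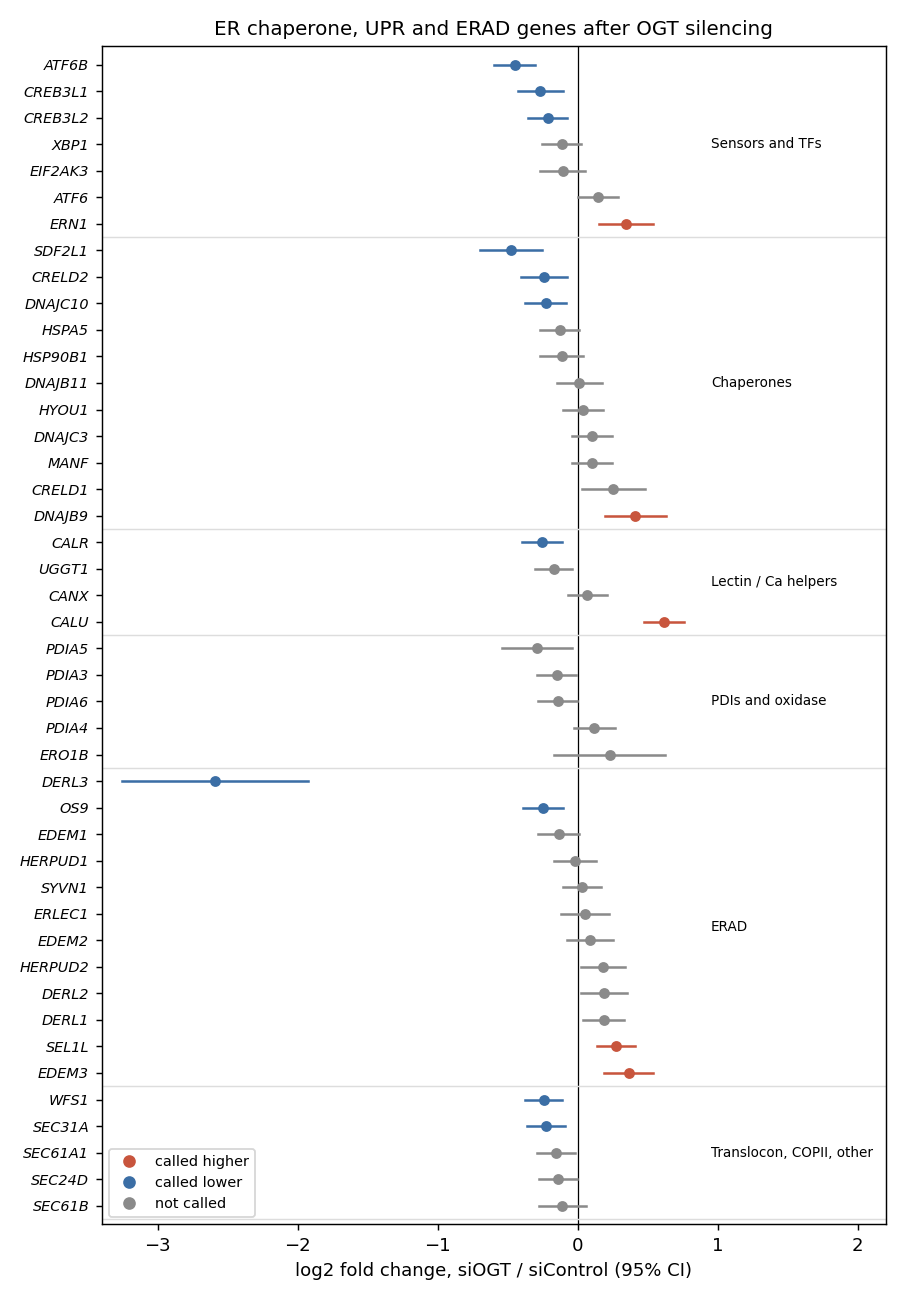
Log2 fold changes (siOGT over siControl, points) with 95% confidence intervals (bars) from the paired edgeR fit for the 44 genes, grouped by role and coloured by call. DERL3 lies at -2.59 and every other gene lies between -0.48 and 0.61.

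Among the 7 sensors and transcription factors, 4 passed the test, 1 higher and 3 lower, with a median log2 fold change of -0.115. Of all genes tested, 25.4% passed, with 12.7% in each direction. Of the genes for the 3 canonical sensors, edgeR called ERN1 alone. ERN1, which encodes IRE1, the kinase and endoribonuclease that splices XBP1 mRNA, had 18.6, 13.1 and 16.2 CPM in siControl and 27.0, 15.5 and 18.9 CPM in siOGT. Every siOGT library was above its partner but the groups overlapped, library 1 of siOGT being the highest. The log2 fold change of ERN1 was 0.35 ± 0.092 (SE, edgeR adjusted p 0.0106), and without the pair of replicate 1 it was 0.24, which was not called (adjusted p 0.216, with a range of 0.00305 to 0.383 over the settings tried).

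EIF2AK3, which encodes PERK, the kinase that slows translation through eIF2α, stood at 33.5, 39.0 and 36.3 CPM in siControl and 34.8, 33.8 and 32.2 CPM in siOGT. These values overlapped, with the ratio up in 1 pair and down in 2 pairs, and the 95% interval of the log2 fold change ran from -0.27 to 0.05. ATF6, the sensor that is cut in the Golgi to release a transcription factor, had 59.7, 55.4 and 50.6 CPM in siControl and 63.8, 59.8 and 59.5 CPM in siOGT. Its siOGT library was the higher in all 3 pairs, by a log2 change of 0.15 ± 0.068, which was not called (edgeR adjusted p 0.125).

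Its close relative ATF6B (chr6:32115264-32128253, minus strand) was lower in siOGT. It had 118, 133 and 100.4 CPM in siControl and 77.5, 105 and 75.7 CPM in siOGT. The groups overlapped at library 2 of siOGT, and each siOGT library was below its partner. The log2 fold change of ATF6B was -0.45 ± 0.068 (edgeR adjusted p 1.39e-04), so that 73.1% of the siControl level was left. In siControl the log2 ratio of ATF6 to ATF6B within a library was -1.08 ± 0.163 (SD, n = 3), and in siOGT it was -0.48 ± 0.286, with no overlap between the groups. ATF6B shares 1.96% of its exonic bases with TNXB on the same strand, and TNXB was itself higher in siOGT (log2 fold change 0.27).

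XBP1, whose spliced mRNA encodes the transcription factor of the IRE1 branch, had 67.7, 56.7 and 57.1 CPM in siControl and 62.2, 54.6 and 50.9 CPM in siOGT. It was a little lower in every pair (log2 fold change -0.12 ± 0.067, edgeR adjusted p 0.228) and was not called. Counts per gene do not separate spliced from unspliced XBP1 mRNA, so its splicing was not analysed here.

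CREB3L1 and CREB3L2 encode ATF6-like membrane-bound transcription factors that act on secretory and collagen genes. CREB3L1 had 268, 400.1 and 259 CPM in siControl and 210.5, 297 and 254 CPM in siOGT. Library 2 was the highest in each group, and the pair of replicate 3 differed little (log2 ratios -0.35, -0.43 and -0.03). Its log2 fold change was -0.27 ± 0.076 (edgeR adjusted p 0.0152), which was not called without replicate 1 or without replicate 2. CREB3L2 fell from 381, 322 and 291 CPM to 334, 288 and 237 CPM, a log2 change of -0.22 ± 0.065 (edgeR adjusted p 0.022), again with overlapping groups. CREB3L2 is named as the remaining called gene, outside the rule for named genes.

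**Figure D3:**
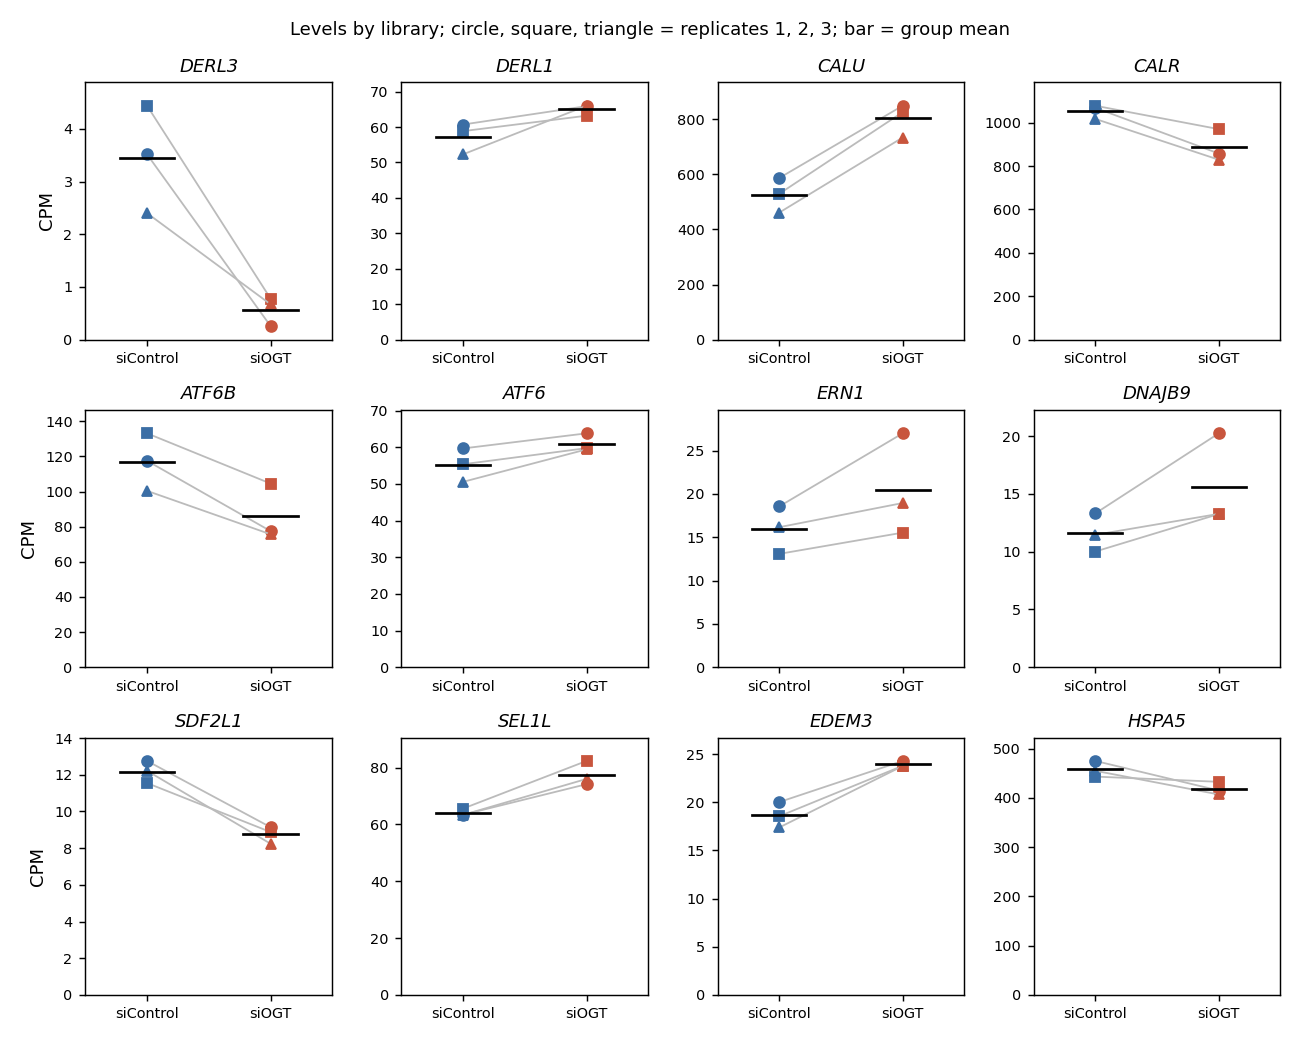
Levels (CPM, axes from 0) of 12 of the genes in each of the 6 libraries, with lines joining libraries of the same replicate number and black bars at the group means. DERL3, CALR, SDF2L1 and HSPA5 have all siOGT libraries below the siControl libraries, DERL1, CALU, SEL1L and EDEM3 have them all above, and in ATF6B, ATF6, ERN1 and DNAJB9 the groups overlap.

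Of the 11 chaperones and co-chaperones, 4 passed the test, DNAJB9 higher and SDF2L1, CRELD2 and DNAJC10 lower. The median log2 fold change was 0.01. Over all genes tested, 25.4% passed, with 12.7% in each direction. The main chaperones were not called. HSPA5, which encodes BiP, the Hsp70 of the ER and the usual readout of the UPR, had 475, 443 and 455 CPM in siControl and 415, 433 and 407 CPM in siOGT. All 3 siOGT libraries were below all 3 siControl libraries, but the log2 fold change was small, at -0.13 ± 0.067 (95% interval -0.27 to 0.01, edgeR adjusted p 0.166). HSP90B1, which encodes the ER Hsp90 GRP94, had 527, 565 and 523 CPM in siControl and 439, 585 and 476 CPM in siOGT, with overlapping groups and a log2 change of -0.12 ± 0.072 (edgeR adjusted p 0.262). Without replicate 1 the value for HSP90B1 was -0.044, and without replicate 2 it was -0.20.

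HYOU1, the nucleotide exchange factor of BiP, had a log2 change of 0.04, DNAJB11 one of 0.01, DNAJC3 one of 0.10 and MANF, a secreted factor that binds BiP, one of 0.10. All 4 of these were uncalled, with groups that overlapped, and the value for DNAJB11 fell below 0 when replicate 1 (-0.010) or replicate 2 (-0.073) was left out. The windows printed above show that HSPA5, HSP90B1 and HYOU1 hold ERSE or ERSE-II.

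DNAJB9, an Hsp40 that promotes the return of IRE1 to its inactive form and is a target of the IRE1 branch, had 13.3, 10.02 and 11.5 CPM in siControl and 20.2, 13.3 and 13.3 CPM in siOGT. Library 1 of siOGT stood well above the other 5 libraries. Its log2 fold change was 0.41 ± 0.102 (edgeR adjusted p 0.00672), and without the pair of replicate 1 it was 0.31, which was not called. ERN1 and DNAJB9 thus shared the same highest library. For both genes library 1 was also the highest of the siControl libraries. This pattern was not particular to them, since library 1 was the highest of each group in ATF6, CANX and CALU too.

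SDF2L1 (chr22:21642302-21644299, plus strand), a partner of BiP and of ER Hsp40 proteins that keeps unfolded proteins soluble, fell in all pairs. Its levels were 12.8, 11.5 and 12.2 CPM in siControl and 9.14, 8.88 and 8.24 CPM in siOGT. The groups did not overlap and the 3 libraries of each lay close together. The log2 fold change was -0.48 ± 0.106 (edgeR adjusted p 0.00318), or 71.9% of the siControl level.

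DNAJC10, an Hsp40 with disulfide reductase activity that serves ERAD, had 56.4, 56.5 and 56.0 CPM in siControl and 43.8, 49.9 and 50.5 CPM in siOGT. The siControl libraries were nearly equal and all lay above siOGT, and the log2 fold change was -0.23 ± 0.071 (edgeR adjusted p 0.023). Neither DNAJC10 nor CRELD2 was called by DESeq2 with the block. CRELD2, an EGF-like protein secreted under ER stress, had 23.7, 28.6 and 27.7 CPM in siControl and 20.3, 24.2 and 23.2 CPM in siOGT. It was lower by almost the same amount in each pair (log2 ratios -0.22, -0.24 and -0.25), and its log2 fold change of -0.24 ± 0.078 passed narrowly (edgeR adjusted p 0.0315) and was lost when any 1 pair was left out.

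Its paralogue CRELD1, shown for comparison and outside the rule for named genes, had 16.9, 17.7 and 13.2 CPM in siControl and 17.1, 19.4 and 20.3 CPM in siOGT, with most of the difference in the pair of replicate 3, and was not called (log2 fold change 0.25, edgeR adjusted p 0.0916). PRRT3 on the opposite strand covers 30.0% of the exonic bases of CRELD1, or 47.4% of its canonical transcript. PRRT3 was itself lower in siOGT (log2 fold change -0.47). The log2 ratio of CRELD2 to CRELD1 within a library was 0.75 ± 0.293 (SD, n = 3) in siControl and 0.25 ± 0.064 in siOGT, without overlap. Such ratios overlapped between the groups for CREB3L1 to CREB3L2, EDEM2 to EDEM1 and EDEM3 to EDEM1. They also overlapped for HERPUD2 to HERPUD1, ERLEC1 to OS9 and DERL2 to DERL1. No share over other gene pairs was computed.

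The 4 lectin chaperones and calcium-binding helpers included the gene with the largest increase and the most abundant gene of the list. CALU (chr7:128739292-128773400, plus strand) encodes calumenin, a calcium-binding protein of the secretory pathway. It had 586, 529 and 461 CPM in siControl and 849, 825 and 733 CPM in siOGT. Every siOGT library was above every siControl library, and the increase was alike in the 3 pairs (log2 ratios 0.53, 0.64 and 0.67). The log2 fold change was 0.61 ± 0.067 (95% interval 0.47 to 0.76, edgeR adjusted p 6.75e-06), a level 53.1% higher, and CALU was called in every setting tried.

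CALR encodes calreticulin, the soluble lectin chaperone that also buffers ER calcium. It had 1068, 1078 and 1018 CPM in siControl and 858, 970.4 and 829 CPM in siOGT. The groups did not overlap, and the log2 fold change was -0.25 ± 0.068 (edgeR adjusted p 0.0106). Its membrane-bound relative CANX, calnexin, likewise outside the rule for named genes, had 597, 504 and 569 CPM in siControl and 615, 549 and 586 CPM in siOGT, which overlapped, and a log2 change of 0.07 ± 0.066 that was not called. The log2 ratio of CANX to CALR within a library was -0.93 ± 0.148 (SD, n = 3) in siControl and -0.60 ± 0.191 in siOGT, again with no overlap, and both genes hold an ERSE in at least 1 promoter window. UGGT1, which adds glucose back to unfolded glycoproteins so that CALR and CANX bind them again, was lower in all 3 pairs and lay just outside the threshold (log2 fold change -0.17 ± 0.063, edgeR adjusted p 0.055).

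None of the 4 protein disulfide isomerases, nor ERO1B, an oxidase that recharges them, passed the test by edgeR with the block or by DESeq2 with it. At an unadjusted p under 0.05 edgeR found 3, all lower. By edgeR with the block, 25.4% of all genes tested passed at the adjusted threshold. PDIA4 had 173, 152 and 144 CPM in siControl and 176, 187 and 147 CPM in siOGT, with library 2 of siOGT the highest, overlapping groups and a log2 change of 0.12 ± 0.070 (edgeR adjusted p 0.238). PDIA3, PDIA5 and PDIA6 had log2 fold changes of -0.15, -0.29 and -0.14 and were lower in all 3 pairs. The 3 siOGT libraries of PDIA5 lay below those of siControl, at 6.45 to 7.47 CPM against 7.88 to 9.39 CPM (edgeR adjusted p 0.0791). PDIA5 shares 12.0% of its exonic bases with SEC22A on the same strand, and an effect of the division of reads between them was not tested. ELL3 on the opposite strand covers 16.9% of the canonical transcript of PDIA3. ERO1B, at 3.05 to 4.81 CPM over all libraries, had the widest interval of the uncalled genes (-0.17 to 0.63).

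The ERAD genes numbered 12, of which 2 were called higher and 2 lower, with a median log2 fold change of 0.07. Over all genes tested, 12.7% were called in each direction. The derlins are membrane proteins of the channel through which ERAD substrates leave the ER. DERL3 (chr22:23834503-23839128, minus strand) had 94, 113 and 67 counts in siControl and 7, 21 and 18 counts in siOGT, which corresponds to 3.52, 4.44 and 2.40 CPM and 0.259, 0.780 and 0.671 CPM. It was low in every library, and the groups were far apart. The log2 fold change was -2.59 ± 0.316 (95% interval -3.26 to -1.93, edgeR adjusted p 2.02e-05), or 6.03-fold lower, with ratios within pairs of -3.43, -2.40 and -1.73 on the log2 scale.

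SMARCB1 lies on the opposite strand and covers 77.0% of the exonic bases of DERL3, or 88.8% of its canonical transcript. SMARCB1 did not pass the test (log2 fold change -0.06, edgeR adjusted p 0.526), and its mean was 84.8 CPM in siControl and 81.4 CPM in siOGT. The library kit is stranded and the counting was strand-specific according to the study's methods. How many reads of SMARCB1 may have been counted for DERL3 was not tested.

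The other two derlins had small values of the opposite sign. DERL1 had 60.7, 58.8 and 52.3 CPM in siControl and 65.9, 63.2 and 66.0 CPM in siOGT, without overlap, and DERL2 had 28.5, 31.0 and 31.3 CPM in siControl and 33.5, 31.2 and 38.9 CPM in siOGT, which overlapped. TBC1D31 on the opposite strand covers 10.4% of the canonical transcript of DERL1. DERL1 and DERL2 were not called, at log2 fold changes of 0.19 ± 0.070 and 0.19 ± 0.079 (edgeR adjusted p 0.0623 and 0.0946). Without replicate 3 these values were 0.10 and 0.11. The log2 ratio of DERL3 to DERL1 within a library was -4.06 ± 0.350 (SD, n = 3) in siControl and -6.77 ± 0.756 in siOGT, whereas that of DERL2 to DERL1 was -0.92 ± 0.175 and -0.92 ± 0.136.

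SYVN1, which encodes HRD1, the ubiquitin ligase of the main ERAD complex, had 132, 150.3 and 140.2 CPM in siControl and 133, 162 and 137 CPM in siOGT. These values overlapped fully, with a log2 change of 0.03 ± 0.064. SEL1L, the adaptor that holds that complex together, had 63.4, 65.6 and 63.4 CPM in siControl and 74.2, 82.4 and 76.0 CPM in siOGT. All siOGT libraries were above all siControl libraries, and the log2 fold change was 0.27 ± 0.065 (edgeR adjusted p 0.00539).

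HERPUD1, a membrane protein of the same complex, had 52.3, 66.5 and 57.1 CPM in siControl and 50.4, 60.6 and 62.4 CPM in siOGT and a log2 change of -0.02, the sign of which turned with library totals alone as the scaling and when replicate 2 was left out. HERPUD2 was higher in every siOGT library and was not called (log2 fold change 0.18, edgeR adjusted p 0.0864).

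The EDEM proteins are mannosidases or mannosidase-like proteins that trim glycoproteins bound for degradation. EDEM3 had 20.01, 18.5 and 17.4 CPM in siControl and 24.3, 23.8 and 23.8 CPM in siOGT. The siOGT libraries were nearly equal and all above siControl, with a log2 change of 0.36 ± 0.083 (edgeR adjusted p 0.00385). EDEM1 and EDEM2 were not called, at -0.14 and 0.09. OS9, a lectin that hands trimmed glycoproteins to SEL1L, had 219, 262 and 220.2 CPM in siControl and 172, 214 and 206 CPM in siOGT. These groups did not overlap, the pair of replicate 3 differing least, and the log2 fold change was -0.25 ± 0.068 (edgeR adjusted p 0.013). The related lectin ERLEC1 was not called, at 0.05, or -0.022 without replicate 2.

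Within the group of translocon, COPII coat and other ER genes, all 5 had a log2 fold change below 0, with a median of -0.155. Of these 5 genes, 2 were called, both lower. Of all 14853 genes tested, 7274 had a log2 fold change below 0, and 12.7% were called lower. SEC31A, an outer coat protein of the vesicles that leave the ER, had 242, 244 and 227 CPM in siControl and 213, 202 and 194 CPM in siOGT. The groups did not overlap, and the log2 fold change was -0.23 ± 0.064 (edgeR adjusted p 0.0145). WFS1, a membrane protein of the ER linked to calcium balance, had 111, 176 and 122 CPM in siControl and 92.8, 147 and 105 CPM in siOGT. Library 2 was high in both groups, which overlapped, but the ratios within pairs were alike (log2 ratios -0.26, -0.26 and -0.21), and the log2 fold change was -0.24 ± 0.063 (edgeR adjusted p 0.00869). SEC61A1 and SEC61B, subunits of the channel for nascent chains, and SEC24D, the cargo-binding coat protein used by procollagen, had log2 fold changes of -0.16, -0.11 and -0.14 and were not called. The value for SEC61B was -0.001 without replicate 1.

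**Figure D4:**
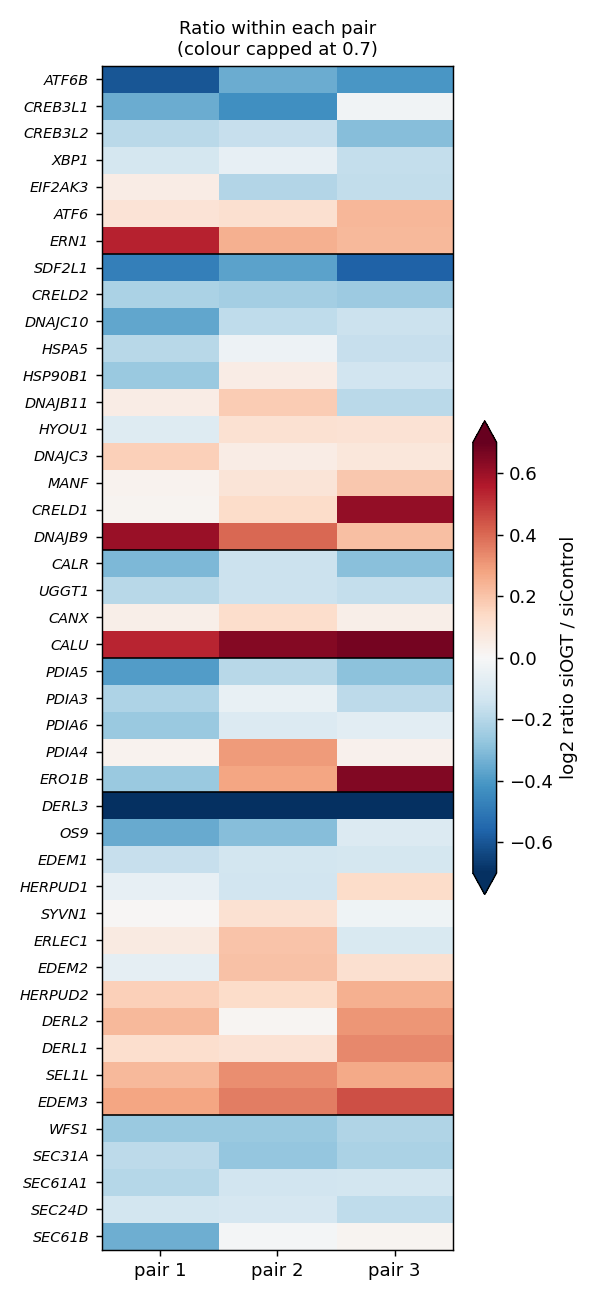
Log2 ratio of siOGT to siControl within each of the 3 pairs for the 44 genes, grouped by role, with the colour scale capped at 0.7 in either direction. CALU, SEL1L and EDEM3 are above 0 and SDF2L1, ATF6B and DERL3 below 0 in every pair, while DERL3 runs beyond the scale at -3.43, -2.40 and -1.73.

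The genes differed far more in level than in response. Per kb of canonical transcript, CALR stood highest in siControl, at 554.9 ± 17.2 CPM per kb (SD, n = 3), followed by HSP90B1 at 193.5 ± 8.34, HSPA5 at 116.8 ± 4.11 and CREB3L1 at 115.7 ± 29.5. HSPA5 and CREB3L1 did not differ beyond their spread, nor did they from SEC61A1 (114.0 ± 11.1) and CANX (113.2 ± 9.68). CALU came eighth of the 44 in siControl, at 99.8 ± 11.9 CPM per kb, and had a mean of 152.4 CPM per kb in siOGT. DERL3 (1.12 ± 0.330) and ERO1B (0.717 ± 0.0957) were at the low end, with ERN1 at 2.02 ± 0.348 and EDEM3 at 2.73 ± 0.193 above them. The 3 derlins thus ranged from 17.8 CPM per kb for DERL1 and 7.27 for DERL2 to 1.12 for DERL3 in siControl.

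**Figure D5:**
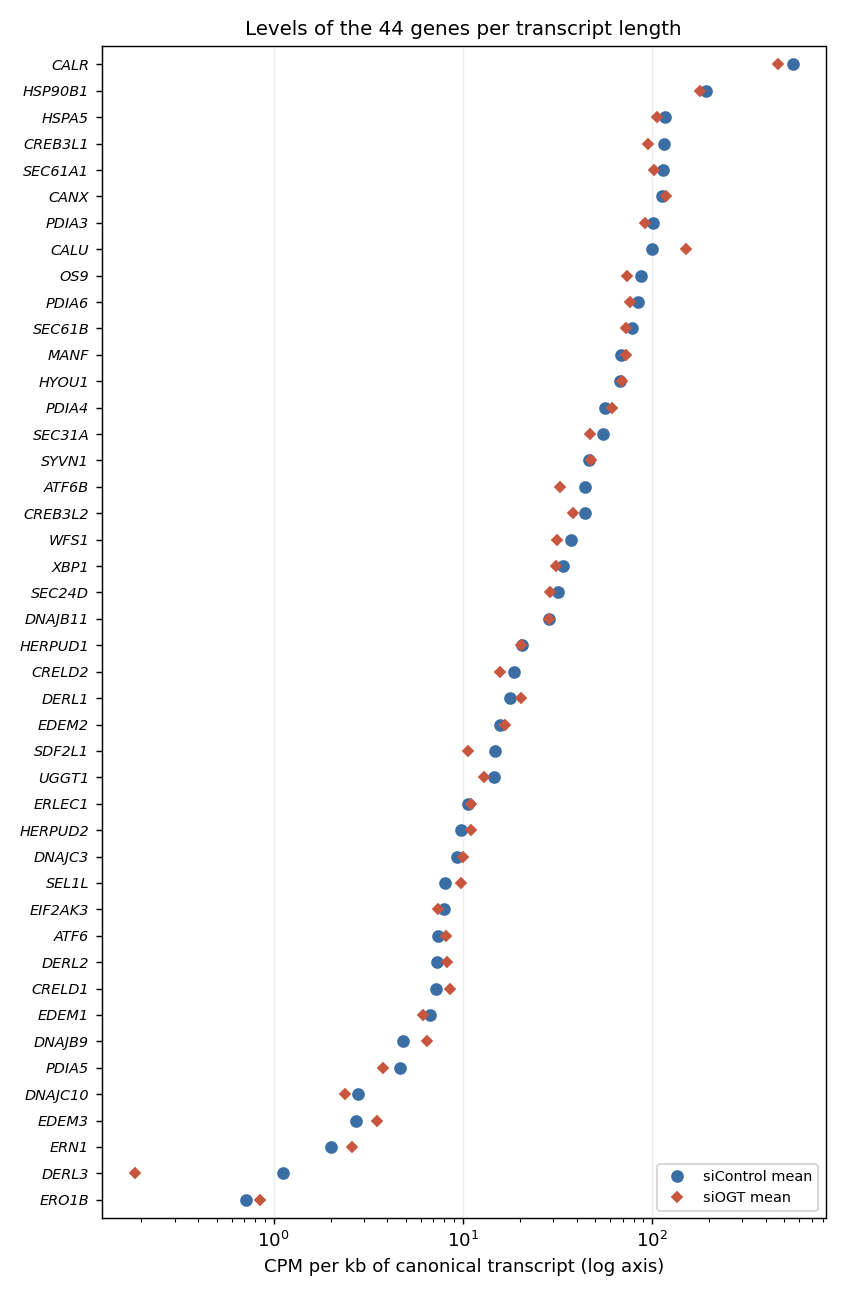
Mean level of each gene in siControl (circles) and siOGT (diamonds), in CPM per kb of canonical transcript on a log axis, ordered by the siControl mean. CALR leads at 554.9 CPM per kb in siControl, and DERL3, which moves from 1.12 to 0.184, shows the widest gap between the groups.

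The response elements were then set against the calls. Of the 13 genes with at least 1 element, edgeR with the block called none higher and 4 lower (SDF2L1, CALR, CRELD2 and DNAJC10), with a median log2 fold change of -0.13. None was higher at an unadjusted p under 0.05, and DESeq2 with the block called 0 higher and 2 lower. Of the 27 genes with a window and no element, 5 were called higher and 6 lower, with a median of 0.05. Over all genes tested, 12.7% were called higher and 12.7% lower. The counts for the 13 and the 27 genes describe genes chosen with the fold changes known. Genes picked by sequence alone were also read, since that choice used no fold change. Of the 32 tested genes with an ERSE or ERSE-II in a window, 2 were called higher, 6 lower and 24 neither, where 25.4% of all genes tested were called, and the median log2 fold change was -0.02. The 21 of them outside the list had a median of 0.00. FICD, which encodes the enzyme that attaches AMP to BiP, was the highest of these and is named after its values were seen. Its mean was 15.4 CPM in siControl and 27.6 CPM in siOGT, a log2 change of 0.85 ± 0.122 (SE, edgeR adjusted p 8.61e-05), which was not called without the replicate block.

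Other genes of the same pathways were read as 4 lists of 107 genes in all, likewise drawn up with earlier results known. Of the 107, 31 were called (29%), a share near the 25.4% of all genes tested and the 29.9% of those with a mean of at least 1 CPM. Of these, 18 were higher and 13 lower, and the median log2 fold change of the 107 genes was -0.01. Without the replicate block edgeR called 2 of them, FKBP9 and SRPRA. The 13 genes of UPR signalling and of the PERK branch held 6 called higher and none lower by edgeR with the block, where 12.7% of all genes tested passed in each direction. No gene of the list was lower at an unadjusted p under 0.05 or by DESeq2 with the block, which called 4 higher. PPP1R15A, which encodes GADD34, the phosphatase subunit that reverses PERK's effect on eIF2α, had 451, 285 and 483 CPM in siControl and 931, 554 and 961 CPM in siOGT. All siOGT libraries were above siControl, with a log2 change of 0.999 ± 0.066 (edgeR adjusted p 3.31e-08). DDIT3, which encodes the transcription factor CHOP, and ATF3, another stress-induced factor, had log2 fold changes of 0.73 ± 0.076 and 0.68 ± 0.094 (edgeR adjusted p 4.74e-06 and 6.34e-05). Both were higher in all 3 pairs. The groups of ATF3 did not overlap, but those of DDIT3 did (29.1 CPM in siControl library 3, 28.6 CPM in siOGT library 2).

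The 31 other chaperones and foldases gave 1 gene called higher and 5 lower, where 12.7% of all genes tested passed in each direction. FKBP9, an ER prolyl isomerase, had the lowest log2 fold change of the 107 genes, at 60.0 ± 2.09 CPM (SD, n = 3) in siControl and 34.9 ± 4.58 CPM in siOGT and a log2 change of -0.79 ± 0.074 (edgeR adjusted p 1.56e-06). UGGT2, the paralogue of UGGT1, and the thioredoxin-like TXNDC15 had log2 fold changes of -0.33 and -0.33, and TMX2, a thioredoxin-related membrane protein, one of 0.26. DESeq2 with the block called TXNDC15 and TMX2 but not UGGT2.

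Beside the 12.7% of all genes tested that passed in each direction, 4 of the 29 other ERAD genes were called higher and 4 lower. The highest were YOD1 (0.72), a deubiquitinase that acts with p97, AUP1 (0.33), which recruits a ubiquitin-conjugating enzyme, and the mannosidase MAN1B1 (0.25). Those called lower included FAM8A1 (-0.37), a partner of HRD1, and VCP (-0.27), which encodes p97, the ATPase that pulls substrates out of the membrane. The values in brackets are log2 fold changes.

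The 34 other translocon, signal peptide and COPII genes gave 7 called higher and 4 lower. The share over all genes tested was 12.7% in each direction. SRPRA, the receptor subunit that docks ribosomes at the ER, went from 140.4 ± 7.67 CPM (SD, n = 3) in siControl to 279 ± 16.6 CPM in siOGT, a log2 change of 0.99 ± 0.067 (edgeR adjusted p 3.94e-08). SEC11C, a signal peptidase subunit, and MCFD2, a cofactor of the cargo receptor LMAN1, were higher by 0.60 and 0.49 on the log2 scale. LMAN1 itself was lower (-0.26), as was the coat protein SEC13 (-0.22), both in all 3 pairs. The retrieval receptor KDELR3 was called lower by edgeR (-0.34) but not by DESeq2 with the block, its groups overlapped, and its log2 ratio in the pair of replicate 3 was 0.07.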

How the data were processed

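The authors selected poly(A) RNA on oligo-dT, made paired-end reads, aligned these to hg38 with Bowtie2 2.3.5.1 and counted them per gene with RSEM 1.3.1 in strand-specific mode, per the labels and methods. The deposited values are RSEM expected counts, not normalized. The methods name a release of the GENCODE annotation for GRCh38, whereas some symbols in the files have the LOC form of RefSeq, so the match of the counts to that release is uncertain. A deposited table of the authors' own comparison by DESeq2 1.36.0 (means, fold changes and p-values) was not used.

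Expected counts were rounded, and genes with a total of at least 10 were kept. Totals were scaled by TMM factors (0.979 to 1.02). The main test was the quasi-likelihood F test (two-sided) in edgeR 4.0.16 under R 4.3.3, with replicate number entered as a blocking term. Benjamini-Hochberg adjustment ran over all genes tested. A gene was called at an adjusted p of at most 0.05. SE and 95% intervals were derived from the F statistic, and log2 ratios within pairs used a prior count of 2. The script was tested on simulated data.

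The methods pair samples of one replicate, and deviations from the group means correlated by 0.724, 0.591 and 0.369 between same-numbered libraries over 12373 genes, which are not independent replicates. Over the 44 members they correlated by 0.708, 0.799 and 0.137, lowest for replicate 3. Libraries of the same group all differed by more than counting noise.

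The members and the gene lists were chosen with earlier results of these data known. Values per library are given for a fixed set of 15 members and for the 10 highest and 10 lowest called members, besides CREB3L2, CRELD1 and CANX, which were added after their values were seen, and up to 3 genes per direction are named from each other list, apart from 1 gene that is not reported here. Coordinates, transcript lengths and overlaps are from GENCODE 44 on hg38. Promoter windows are from RefSeq (GRCh38.p14). Alternatives were no block, other scalings, other filters, DESeq2 1.42.0, counts not rounded and leaving out each replicate.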

Additional observations from a re-analysis of the deposited data

How the results depend on the processing

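edgeR with the replicate block called 3766 genes, 16 of the 44 ER genes (5 higher, 11 lower) and 31 of the 107 other pathway genes. Without the replicate block it called 130 genes in all, 2 ER genes (1 higher, 1 lower) and 2 other pathway genes. The common dispersion was 0.00449 with the block and 0.0193 without. DESeq2 with the block called 2415 genes and 13 ER genes, losing ERN1, DNAJC10 and CRELD2. DESeq2 without it, chosen after seeing the data, called 849 genes, 3 ER genes (CALU higher, DERL3 and SDF2L1 lower) and 9 other pathway genes. When 1 replicate was left out, calls ranged from 1803 to 3439 over all genes, from 6 to 17 ER genes (3 to 7 higher, 3 to 12 lower) and from 11 to 31 other pathway genes, and the median log2 fold change of the 44 genes from -0.11 to -0.027. Each lowest count was without replicate 1.

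Without replicate 2, CREB3L1, CRELD2 and SEC31A were lost and CRELD1 and DERL2 gained, and without replicate 3, CRELD2 was lost and UGGT1 and PDIA6 gained. Scaling by library totals alone lost CRELD2 and gained DERL1, and no filter on low counts gained CRELD1. Median-ratio scaling, filterByExpr and counts not rounded, the last chosen after seeing the data, called the same 16 genes. HERPUD1 changed sign with library totals alone (0.0017) and when replicates were left out (-0.10 to 0.035), and SYVN1 (-0.0134), DNAJB11 (-0.073) and ERLEC1 (-0.022) without replicate 2, DNAJB11 also without replicate 1 (-0.010). SYVN1 ranged up to 0.05 when 1 replicate was left out. None of these 4 genes was called. Other uncalled genes also moved by over 1.5 times. Among them were EIF2AK3 at -0.191, PDIA4 at 0.026 and CANX at 0.04 (without replicates 1, 2 and 2). ATF6 was at 0.097, CRELD1 at 0.068 and ERO1B at 0.006 without replicate 3. ERO1B was at 0.467, SEC61B at -0.001 and HYOU1 at 0.102 without replicate 1. HYOU1 was at 0.003 without replicate 2 and without replicate 3. The cause of these changes was not tested. OGT was called in every setting, at -2.25 to -2.11 when a replicate was left out.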
